A study of Ovis aries with 6 samples.

Results

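The growth factors FGF2, FGF7 and VEGFA and the feedback inhibitor SPRY1 were followed in the skin of sheep with fine and with coarse wool. The 4 genes were chosen by name, together with 5 probes that stand for them (FGF2 has 2 probes), and they are 4 of the 477 genes that could be given a name on this array. Skin of full thickness, about 1 cm2 from the body side of each animal, was taken under local anaesthesia, and its RNA was labelled with 1 dye (Cy3) and read on Agilent sheep arrays. The Aohan fine wool sheep group (fine wool) and the small tail Han sheep group (coarse wool) each held 3 animals aged 12 months, 1 ram and 2 ewes, with 1 array per animal. All animals were reared in pens, no treatment is recorded for either group, and the labels do not give the sex of each animal. The 3 animals of a breed shared a sire, and the 3 arrays of a breed shared a scan that held no array of the other breed, so breed, sire family and scan cannot be told apart.

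Fibroblast growth factors are secreted proteins that bind receptor tyrosine kinases with the help of heparan sulphate and switch on the RAS-ERK cascade. In skin, FGF7 and FGF10 are made by dermal cells and act on the epithelium of the epidermis and follicle, while FGF2 acts on fibroblasts and on endothelial cells. VEGFA acts on receptors of endothelial cells and drives the growth and permeability of vessels, including those that surround hair follicles. SPRY1 belongs to the Sprouty family, intracellular proteins that are induced by this kind of signalling and in turn restrain the RAS-ERK cascade.

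A level is given here as log2 of the background-subtracted Cy3 intensity minus the 75th percentile of the non-control probes on the same array, so that 0 is the level of the 75th percentile. Levels of different probes cannot be set against each other, because probes differ in how strongly they bind. Between 10774 and 13418 of the 15008 probes were well above background on each array, the 75th percentile lay at an intensity of 1103 to 2309, and no spot was saturated. A probe entered the comparison of the breeds when it was well above background on at least 3 arrays with at least 2 values per breed, which 12481 probes did. All 5 member probes were well above background on all 6 arrays and were tested. A change is Aohan minus small tail Han on this log2 scale, and it passed the test when the limma adjusted p, corrected over all tested probes, was under 0.05. The median change of all tested probes was 0.025.

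Of the 5 member probes, 1 probe of FGF2 rose in Aohan skin, the probes of VEGFA and SPRY1 fell, and the other FGF2 probe and the FGF7 probe did not pass. Over all tested probes, 7.57% passed as higher in Aohan and 7.6% as lower. The breeds did not overlap at 2 member probes with Aohan above (both of FGF2) and at 2 with Aohan below (VEGFA and SPRY1), beside 17.8% and 16.4% of all tested probes. The genes were picked with earlier results of these animals known, so the count of members that passed is no independent evidence about the pathway. Because whole skin was used, fewer cells of a type and less RNA per cell cannot be told apart for any of these genes.

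**Figure D1:**
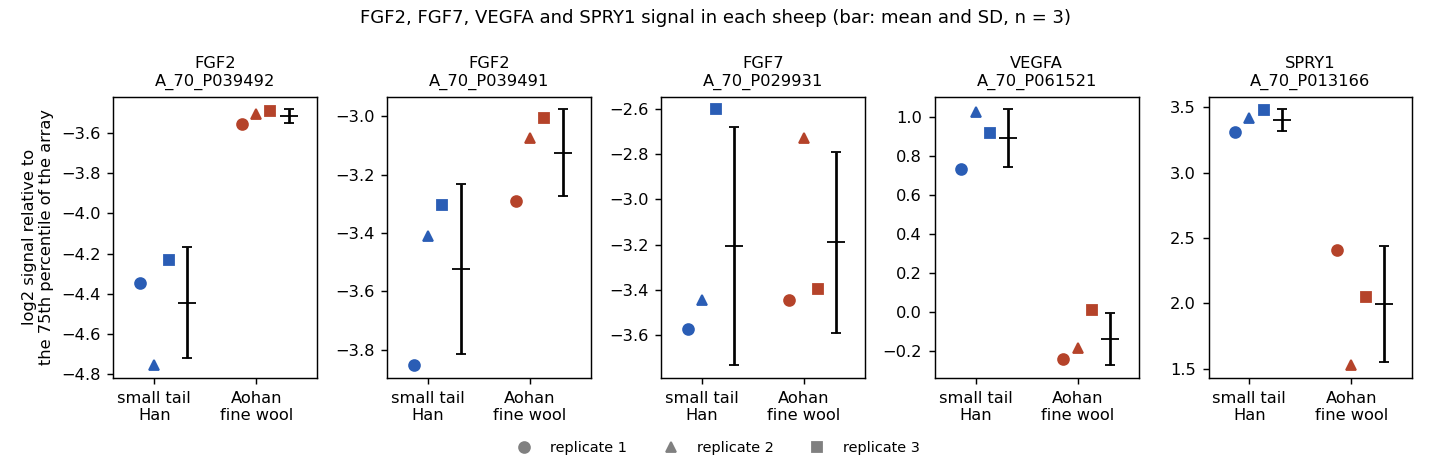
Level of each member probe in each sheep, as log2 signal relative to the 75th percentile of the array, with 1 panel per probe and its own vertical axis. Symbols mark the replicate (animal) number, blue is small tail Han and red is Aohan, and the black bar gives the mean and SD of 3 animals. The breeds are apart by 0.68 for FGF2 probe A_70_P039492, by 0.72 for VEGFA and by 0.91 for SPRY1, and they overlap for FGF7.

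FGF2, the basic fibroblast growth factor, was measured by A_70_P039492 (1 spot per array) and A_70_P039491 (5 spots per array), both assigned to the transcript NM_001009769. At A_70_P039492 the level was -4.34, -4.76 and -4.23 in small tail Han replicates 1 to 3 and -3.55, -3.50 and -3.49 in Aohan replicates 1 to 3. Every Aohan animal lay above every small tail Han animal, with 0.68 between the nearest animals, and the Aohan animals were much closer to each other than the small tail Han animals were. The means were -3.52 ± 0.035 in Aohan and -4.44 ± 0.28 in small tail Han (SD, n = 3). FGF2 rose by 0.93 at this probe (SE 0.22, 95% confidence interval 0.42 to 1.43), a 1.90-fold higher level in Aohan (1.34 to 2.70), with a limma adjusted p of 0.0254. The exact two-sided permutation p was 0.1, the smallest that 3 against 3 animals allow.

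The FGF2 spot was dim. The processed intensities read 113.7, 67.9 and 92.9 in small tail Han and 93.9, 180.5 and 100.7 in Aohan, so before scaling the breeds overlapped. The unsubtracted median of the spot ranged from 161 to 233 over a local background of 43 to 52.5. A rise larger than that of A_70_P039492 was found at 697 of the tested probes (5.58%). The paper already lists A_70_P039492 among the differentially expressed genes of these animals, so its passing here is no independent evidence. The call did not survive normexp background correction (change 0.43, limma adjusted p 0.483). That correction adds 50 to every spot, which shrinks the log2 change of a dim spot. Its part in the loss was not tested. Without background subtraction the probe passed (change 0.71, limma adjusted p 0.0319), where the median change of all tested probes was 0.13. By the methods' t-test it did not pass on the scaled signals (adjusted p 0.0598). On the deposited normalized values it passed by that test (change 0.95, adjusted p 0.0246). The call was also lost in limma fits without small tail Han replicate 2 (change 0.77, adjusted p 0.110), without Aohan replicate 2 (0.92, adjusted p 0.0607) and without Aohan replicate 3 (0.92, adjusted p 0.0952).

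At the second FGF2 probe, A_70_P039491, the mean of the 5 spots was -3.85, -3.41 and -3.30 in small tail Han and -3.29, -3.08 and -3.01 in Aohan. The Aohan animals were again the 3 highest, but the gap between the nearest animals was only 0.014. The means were -3.12 ± 0.15 in Aohan and -3.52 ± 0.29 in small tail Han (SD, n = 3). The change was 0.40 (SE 0.21, 95% confidence interval -0.088 to 0.88), with a limma adjusted p of 0.258, so this probe did not pass.

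Taken spot by spot, the change in FGF2 at A_70_P039491 was 0.50, 0.074, 0.26, 0.24 and 0.91. The breeds did not overlap at 3 of the 5 spots. The coefficient of variation of the 5 spots within an array was 16.3%, 14.3% and 19.0% in small tail Han and 24.6%, 11.9% and 7.99% in Aohan. For comparison, 50 probes had 5 spots, and their median coefficient ranged from 7.77% to 8.91% among small tail Han arrays and from 11.2% to 19.6% among Aohan arrays. FGF2 thus scattered more than the median probe on the small tail Han arrays and Aohan replicate 1. It scattered about as much on Aohan replicate 2 (11.9% against 11.7%) and less on Aohan replicate 3. The 50 probes were not matched to FGF2 for intensity, and the part of its dim signal in this scatter was not tested. Spots of 1 array share 1 RNA sample and were not counted as replicates.

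**Figure D2:**
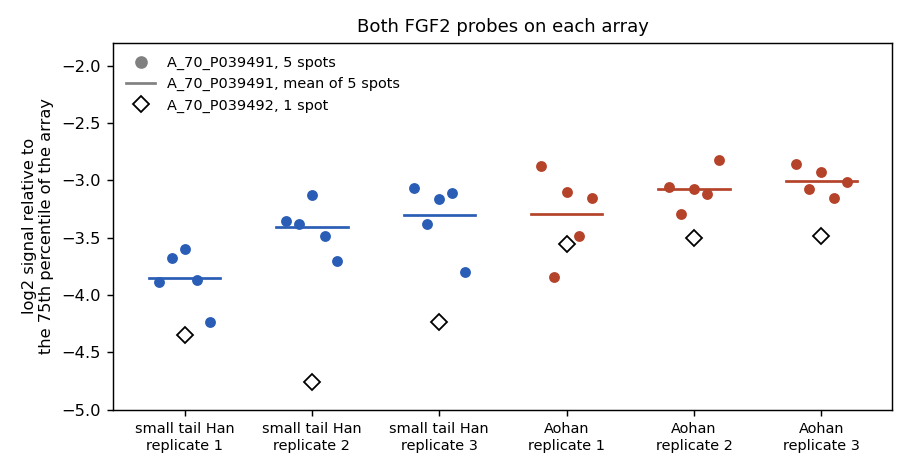
Level at both FGF2 probes on each array, as log2 signal relative to the 75th percentile of the array. Filled points are the 5 spots of A_70_P039491, the line is their mean, and the open diamond is the single spot of A_70_P039492. The diamond lies below the line on every array, with A_70_P039492 minus A_70_P039491 from -0.48 to -0.26 in Aohan and from -1.35 to -0.49 in small tail Han.

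The difference between the FGF2 probes was compared directly, which removes the scaling of the array. A_70_P039492 minus A_70_P039491 was -0.49, -1.35 and -0.93 in small tail Han and -0.26, -0.43 and -0.48 in Aohan. The breeds did not overlap, although small tail Han replicate 1 and Aohan replicate 3 were almost equal. The means were -0.39 ± 0.11 in Aohan and -0.92 ± 0.43 in small tail Han (SD, n = 3). The breed difference of the pair was 0.53 (SE 0.23, 95% confidence interval -0.045 to 1.11). In a limma fit over 463 pairs of probes that share an accession, the p was 0.0645 and the adjusted p 0.280, while 4.1% of the pairs passed. The interval holds 0 and reaches past 1, so these data do not show that the probes of FGF2 differ in their response, nor that they respond alike. A larger disagreement in either direction was seen in 109 pairs (23.5%), and the median size over the pairs was 0.27.

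FGF7, the keratinocyte growth factor, had a level of -3.57, -3.44 and -2.60 in small tail Han and -3.45, -2.73 and -3.39 in Aohan at A_70_P029931 (NM_001009235). One animal in each breed stood higher than the others, small tail Han replicate 3 and Aohan replicate 2, and the breeds overlapped throughout. The means were -3.19 ± 0.40 in Aohan and -3.21 ± 0.53 in small tail Han (SD, n = 3). The change was 0.016 (SE 0.31, 95% confidence interval -0.68 to 0.72), with a limma adjusted p of 0.979. The interval runs from 0.62 to 1.64 times the small tail Han level, so changes of that size in either direction are not excluded by these 6 arrays. The sign of the FGF7 change turned under quantile normalization (-0.039) and median centring (-0.026).

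A second FGF7 probe, A_70_P029932, was not well above background on any small tail Han array and was so on Aohan replicates 2 and 3, which was too few to be tested. Its level was -6.27, -7.36 and -7.37 in small tail Han and -5.72, -4.76 and -4.91 in Aohan. The Aohan values were the 3 highest, but Aohan replicate 1 and all small tail Han animals were not well above background, so no fold is given.

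FGF10, which signals to the epithelium through the same receptor form as FGF7, was measured above background by 1 of its 4 probes. At A_70_P012572 the level was -4.53, -5.16 and -3.74 in small tail Han and -3.95, -4.03 and -3.77 in Aohan. The highest animal of all was small tail Han replicate 3 and the lowest small tail Han replicate 2, the only animal in which this probe was not well above background. The change was 0.56 (SE 0.35, 95% confidence interval -0.23 to 1.35), with a limma adjusted p of 0.326. The probes A_70_P012571, A_70_P068086 and A_70_P068087 were not well above background on any array.

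VEGFA, the vascular endothelial growth factor, was lower in Aohan skin at A_70_P061521. The level was 0.73, 1.03 and 0.92 in small tail Han and -0.24, -0.19 and 0.012 in Aohan. All Aohan animals lay below all small tail Han animals, with 0.72 between the nearest ones, which was more than the range within either breed. The means were -0.14 ± 0.13 in Aohan and 0.89 ± 0.15 in small tail Han (SD, n = 3). VEGFA fell by 1.03 (SE 0.15, 95% confidence interval -1.37 to -0.69), a 2.04-fold lower level (1.61 to 2.59), with a limma adjusted p of 0.00287. The exact two-sided permutation p was 0.1, again the smallest possible.

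The VEGFA spot was bright. Its processed intensity before scaling was 3836, 3738 and 3300 in small tail Han and 933, 1799 and 1140 in Aohan, without overlap. The arrays themselves differed in brightness. Their 75th percentile was 2309, 1837 and 1747 in small tail Han and 1103, 2048 and 1131 in Aohan. The unscaled intensities therefore add no support to the scaled change. A larger fall than that of VEGFA was found at 657 tested probes (5.26%). The probe carries the accession of an expressed sequence tag, EE772615. Its gene name comes from the study's supplementary list of probes, which the paper describes as differing between these breeds. A probe named in this way was already known to differ in these animals, so its passing here is no independent evidence. A further 2 probes carry the RefSeq accession of VEGFA, NM_001025110, and neither A_70_P050921 nor A_70_P050922 was well above background on any of the 6 arrays. Their intensities were 4.60 to 11.2, so no fold is given for them. The call for VEGFA thus rests on 1 probe named through a sequence tag, and the RefSeq probes measured nothing that could be set beside it.

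**Figure D3:**
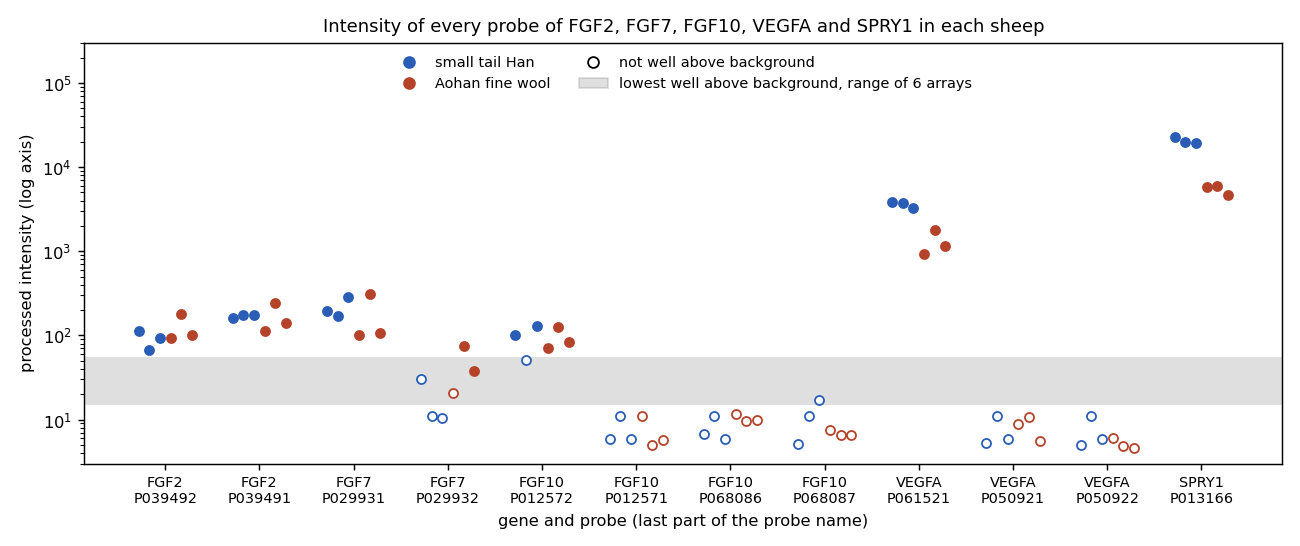
Processed Cy3 intensity (log axis) of every probe of FGF2, FGF7, FGF10, VEGFA and SPRY1 on each array, before scaling between arrays. Filled points are well above background and open points are not, blue is small tail Han and red is Aohan, and the grey band spans the lowest intensity called well above background on each array (14.9 to 55.0). VEGFA A_70_P061521 and SPRY1 lie far above the band, the member probes of FGF2 and FGF7 lie above it on every array, and the RefSeq probes of VEGFA lie below it.

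SPRY1, the feedback inhibitor, had the largest change of the member probes. At A_70_P013166 the level was 3.31, 3.42 and 3.48 in small tail Han and 2.41, 1.53 and 2.05 in Aohan. The small tail Han animals were nearly equal, the Aohan animals spread over a wider range, and the nearest animals of the breeds were 0.91 apart. The means were 1.99 ± 0.44 in Aohan and 3.40 ± 0.082 in small tail Han (SD, n = 3). SPRY1 fell by 1.41 (SE 0.22, 95% confidence interval -1.91 to -0.90), a 2.65-fold lower level (1.87 to 3.76), with a limma adjusted p of 0.00441. The exact two-sided permutation p was 0.1.

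The intensity of SPRY1 was 22969, 19596 and 19452 in small tail Han and 5846, 5905 and 4686 in Aohan. These were also apart before scaling, with the same limit from the brightness of the arrays. A larger fall was found at 349 tested probes (2.80%). Like that of VEGFA, the SPRY1 probe carries a sequence tag (EE851387) and takes its name from the study's list of differing probes. Its passing is thus no independent evidence either. Its reading on small tail Han replicate 1 came from the low-gain scan, and the replicate was close to the other animals of its breed, which were read at the usual gain. By the methods' t-test on the scaled signals the adjusted p for SPRY1 was 0.0665. On the deposited normalized values SPRY1 passed by that test (change -1.21, adjusted p 0.0411).

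Ratios within an array do not depend on the scaling and were used to compare the members with each other, in 10 pairs of probes that include the FGF2 pair above. Relative to SPRY1, FGF2 was higher in Aohan by 2.34 at A_70_P039492 and by 1.81 at A_70_P039491, on the log2 scale of the ratio. Relative to VEGFA, FGF2 was higher in Aohan by 1.96 and 1.43 at the same probes. FGF7 was higher in Aohan by 1.05 relative to VEGFA and by 1.42 relative to SPRY1, although its own level hardly differed. The breeds did not overlap in any of these 6 ratios, each with an exact permutation p of 0.1. Each ratio sets a probe that was higher or hardly changed against one that fell. The separation thus follows from the changes given above and adds no evidence to them. No share over all pairs of probes was computed, and 34.2% of single tested probes did not overlap. For the ratio of VEGFA to SPRY1 the difference was 0.38 and the breeds overlapped (exact permutation p of 0.4). Neither did the ratios of FGF2 to FGF7 separate the breeds (exact permutation p of 0.3 for A_70_P039491 and 0.2 for A_70_P039492).

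The rest of the pathway was poorly covered by named probes. Of 125 genes listed for FGF and VEGF signalling, 10 had a probe named through RefSeq and 8 of these were tested by the brightest probe of each gene. These 8 include FGF2 (by A_70_P039491) and FGF7, while the probes at which VEGFA and SPRY1 fell carry no RefSeq accession and are not counted. None of the 8 passed in either direction by limma, beside 15.2% of all tested probes. By unadjusted limma p under 0.05 the count was 0, beside 3675 of the 12481 tested probes, and 0 passed by the methods' t-test. Their changes ran from -0.22 to 0.56 with a median of 0.15, and 1 of the 8 genes, FGF2, had breeds that did not overlap, as did 34.2% of all tested probes. Where any probe of a gene was allowed to stand for it, 1 of the 3 FGF ligands passed, FGF2 at A_70_P039492. None of the 20 listed FGF receptors and co-receptors, 5 VEGF receptors and co-receptors and 14 genes of the hypoxia response that controls VEGFA could be named here.

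Among the signalling genes that were tested, CAV1, the caveolin that restrains growth factor receptors at the membrane, changed by 0.43 (limma adjusted p 0.227). ARAF, a kinase of the RAS-ERK cascade, differed by -0.055 (adjusted p 0.908) and AKT1, the kinase of the PI3K branch, by 0.13 (adjusted p 0.732). EGR1, an immediate early target of ERK, differed by 0.16 (adjusted p 0.639). MYC, a growth-promoting transcription factor downstream of ERK, differed by -0.22 at its brighter probe (adjusted p 0.416) and by -0.53 at the other (adjusted p 0.201). FOS, another immediate early gene, was well above background on only 2 arrays at each of its 3 probes and was not tested.

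Markers of the cell types in skin were read beside these changes. CNN1, the calponin of smooth muscle and the only one of 7 listed smooth muscle and pericyte genes with a name here, fell by 1.31 in Aohan (SE 0.24, limma adjusted p 0.00936). Its level was 5.36, 5.65 and 5.83 in small tail Han and 4.59, 3.85 and 4.46 in Aohan, so the breeds were apart and, as for SPRY1, Aohan replicate 2 was the lowest animal. As a multiple of the 75th percentile, CNN1 spanned 14.5 to 24.1 in Aohan and 41.0 to 56.7 in small tail Han. The part of smooth muscle content in the lower SPRY1 and VEGFA was not tested.

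The endothelial genes SELE and SELP, the vascular selectins, were the 2 of 12 endothelial markers with a name, and neither passed. SELE changed by -0.39 (limma adjusted p 0.229) and SELP by -0.35 (adjusted p 0.255), and their summed level was 0.145 to 0.168 in Aohan and 0.195 to 0.218 in small tail Han, without overlap. The part of vessel content in the lower VEGFA was not tested. Of 6 tested leukocyte genes, 3 rose in Aohan, while 7.57% of all tested probes passed as higher. CD3E of the T cell receptor complex was up by 1.11 (limma adjusted p 0.0135), CD3D by 0.92 (adjusted p 0.0362) and the integrin ITGB2 by 0.95 (adjusted p 0.0108). The others did not pass, with changes of 0.34 for LCK (adjusted p 0.285) and 0.88 for ITGAM (adjusted p 0.377). CD14 changed by 0.19 at its brighter probe (adjusted p 0.721) and by -0.31 at the other (adjusted p 0.420). The summed level of the leukocyte genes was 7.60 to 9.41 in Aohan and 3.51 to 5.59 in small tail Han. CD3E and CD3D weigh most in this sum, as the brightest of these probes on every array, so it largely repeats their changes. The part of leukocyte content in the FGF2 change was not tested. CD4 was the leukocyte marker that was too dim to be tested.

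The follicle keratins KRT25, KRT27 and KRT35 were strongly expressed in all animals, with a summed level of 436 to 821 times the 75th percentile in Aohan and 527 to 756 times in small tail Han, and 0 of the 3 passed. DCN and BGN, proteoglycans made by dermal fibroblasts, did not pass either (0 of 2), nor did the epidermal gene SFN (change 0.075). The labelled tissue thus showed its follicle, dermal and epidermal genes in both breeds, and the follicle and fibroblast totals overlapped between them.

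The named genes whose levels ran most like those of each member were found among 506 tested probes, by the root-mean-square difference of the mean-centred log2 levels over the 6 arrays. Being picked as nearest, they lie below the median by construction, and the measure favours genes with a like breed change. Why they ran alike was not tested. For SPRY1 they were CNN1 (0.121), the gastrokine gene GKN1 (0.177) and the galectin gene LGALS15 (0.180), against a median of 0.782 over all candidates. VEGFA was followed most closely by OXT, the oxytocin gene (0.132), the glycogen phosphorylase gene PYGB (0.140) and the chemokine gene CXCL1 (0.147), with a median of 0.601. For FGF2 at A_70_P039492 they were the mast cell tryptase gene TPSB2 (0.160), LOC443295 (0.168) and LOC443441 (0.185), with a median of 0.551. A_70_P039491 shared none of these, and its nearest were the kinase gene PRKAA2 (0.117), the galectin gene LGALS1 (0.132) and the casein gene CSN3 (0.143), with a median of 0.382. FGF7 had no neighbour as close, the nearest being FCER1A of the IgE receptor at 0.259, LALBA at 0.277 and OVAR at 0.277, with a median of 0.495.

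In the RefSeq annotation of the sheep assembly ARS-UI_Ramb_v3.0, FGF2 and SPRY1 lie on the same chromosome. Between them are 3 protein-coding genes, AFG2A, LOC101102839 and NUDT6, and 4 genes of other kinds. NUDT6 overlaps FGF2, and which strand the FGF2 probes read is not given in the sources used here, so signal from the overlapping gene cannot be told apart from that of FGF2. The changes were 0.93 at FGF2 probe A_70_P039492, 0.40 at A_70_P039491, which did not pass, and -1.41 at the SPRY1 probe.

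**Figure D4:**
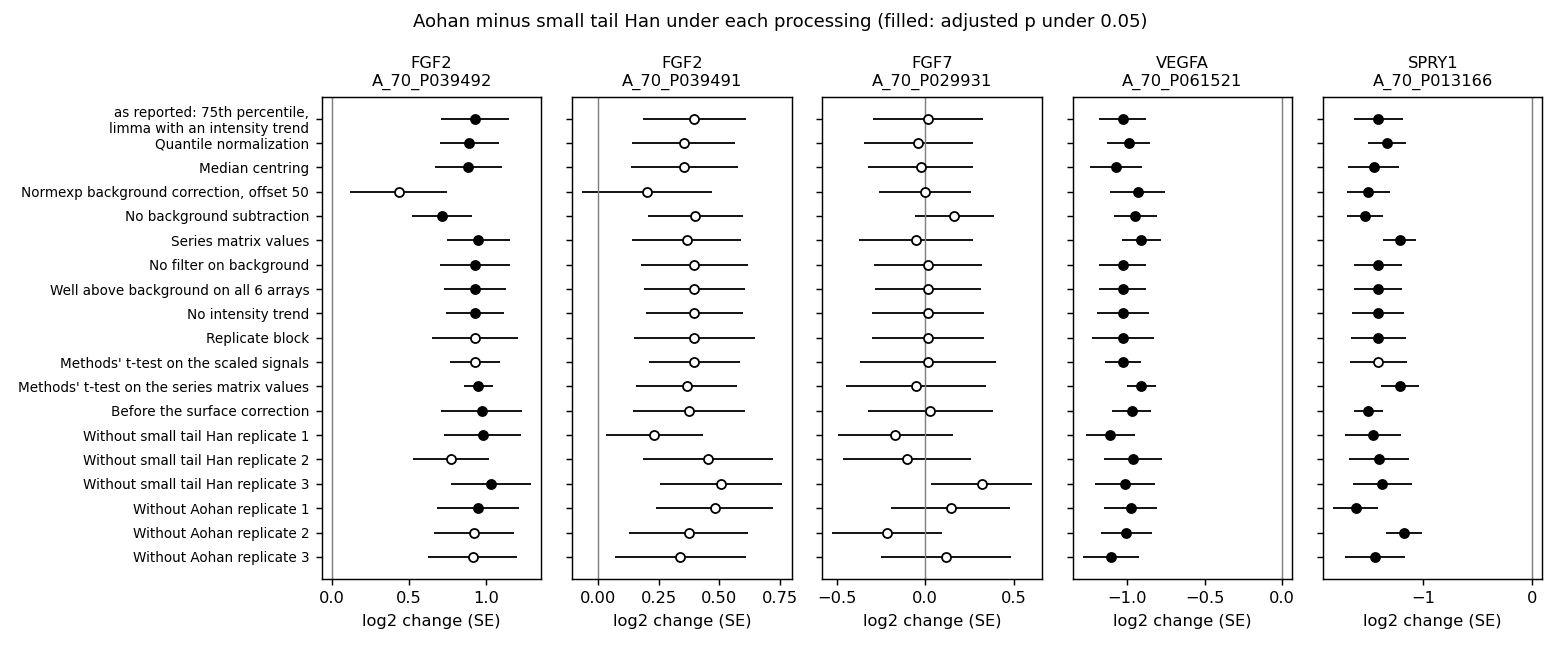
Change of each member probe (Aohan minus small tail Han, log2 scale) under each alternative, including fits that leave out 1 animal. There is 1 row per alternative, 1 panel per probe with its own horizontal axis, and a bar of 1 SE to each side. Filled points have an adjusted p under 0.05 and the grey line marks no change. VEGFA stays between -1.11 and -0.91 with every point filled, SPRY1 stays between -1.61 and -1.17 with 1 open point, FGF2 A_70_P039492 stays above 0 with 6 open points, FGF2 A_70_P039491 has only open points, and FGF7 scatters around 0.

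Under 18 other ways of processing the arrays, VEGFA kept its sign and passed in all 18, and SPRY1 kept its sign in all 18 and passed in 17. FGF2 at A_70_P039492 kept its sign in all 18 and passed in 12, and A_70_P039491 kept its sign in all 18 and passed in 0. The change of FGF7 turned negative in 8 of the 18 and passed in 0.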

How the data were processed

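Skin RNA of 6 sheep was hybridised to 1 array each. Per the file headers, the authors read the scans with the software Agilent Feature Extraction, version 10.5.1.1, and deposited background-subtracted Cy3 intensities per spot, not normalized between arrays, with 0 or 1 flags for background, saturation and outliers. On all arrays but those of small tail Han replicates 2 and 3, a multiplicative surface correction is recorded. A deposited table of the series gives log2 values after a normalization between arrays whose method the authors did not state. Its columns share a median of 8.31, rise with the scanner values (Pearson r across probes 0.997 to 0.999) and keep their direction, and it was used as an alternative.

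Control spots and outlier spots were left out, log2 of the processed intensity was taken, each array was scaled by its 75th percentile and repeated spots of a probe were averaged. Breeds were compared over 12481 probes with limma 3.58.1 in R 4.3.3 (two-sided, empirical Bayes with a trend on intensity, Benjamini-Hochberg at 0.05). The script was tested on simulated data. Exact permutation tests over animals stand beside the member values. The p-values measure the spread between animals, and the number of arrays limits the precision.

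The members and gene lists were chosen with earlier results of these data known. Named were the member probes, pathway genes that passed and up to 3 others per list by p, the 3 genes nearest each member, and up to 3 markers per list. The other leukocyte markers on the array are named as well. Of 758 probes with a RefSeq accession, 734 were named through the RefSeq table of ARS-UI_Ramb_v3.0. No sequence of a probe or gene was used here. Further marker lists (sebaceous gland 0 of 4 passed, adipocyte 0 of 2, melanocyte 0 of 1, skeletal muscle 0 of 1, red cell 0 of 1, mammary gland 0 of 4, or 1 of 4, CSN2, where any probe may stand for a gene) were read by the same rule. Alternatives changed the scaling, background correction, filter, test, replicate block and animals. Those with normexp (offset 50) and without background subtraction used median spot signals in place of the planned means, and the one before the surface correction was added after the data were seen.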

Additional observations from a re-analysis of the deposited data

How the results depend on the processing

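The FGF2 probe A_70_P039492 kept its direction but no longer passed with normexp correction (0.43, adjusted p 0.483) or by the methods' t-test on the scaled signals (0.93, adjusted p 0.0598). The offset of 50 in the normexp correction shrinks the log2 change of dim spots such as this one. By the t-test on the series matrix values this probe passed (0.95, adjusted p 0.0246). Leaving out 1 animal gave 0.77 to 1.03, and the call was lost without small tail Han replicate 2, Aohan replicate 2 or Aohan replicate 3. SPRY1 was lost only by the t-test on the scaled signals (-1.41, adjusted p 0.0665). It passed by the t-test on the series matrix values (-1.21, adjusted p 0.0411) and ran from -1.61 to -1.17 with 1 animal left out. FGF7, which never passed, was -0.039 with quantile normalization, -0.026 with median centring, -0.000492 with normexp and -0.051 on the series matrix values by either test, and -0.21 to 0.32 with 1 animal left out. VEGFA passed under all 18 alternatives (adjusted p 9.47e-05 to 0.0297), and the FGF2 probe pair (0.23 to 0.75, adjusted p 0.125 to 0.492), A_70_P039491 (0.20 to 0.51, adjusted p 0.204 to 0.812) and the 8 pathway genes passed under none. The 945 higher and 948 lower probes became 321 and 391 by the t-test on the scaled signals, 334 and 501 by the t-test on the series matrix values, and 347 to 1230 and 441 to 1018 with 1 animal left out, fewest without small tail Han replicate 2 (347 and 441), and 462 and 481 without small tail Han replicate 3 and 430 and 628 without Aohan replicate 3. Without background subtraction, 1163 were higher and 762 lower, and the median change of all tested probes moved to 0.13, so the changes of 0.71 for FGF2 A_70_P039492, -0.95 for VEGFA and -1.53 for SPRY1 are to be read against that shift. Across 12410 probes, the deviations of animals with the same replicate number correlated at r of -0.22 and -0.37 for replicates 1 and 2 and at 0.28 for replicate 3, so the numbers were not taken as pairs. With a replicate block 565 probes were higher and 669 lower, FGF2 A_70_P039492 did not pass (0.93, adjusted p 0.0703), and VEGFA (adjusted p 0.0114) and SPRY1 (adjusted p 0.00747) did. The cause of these differences was not tested. Over the background corrections tried, FGF2 A_70_P039492 ran from 0.43 to 0.93 and VEGFA from -1.03 to -0.93.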
